A study of Drosophila melanogaster with 6 samples.

Results

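A set of 7 genes that build the peroxisome membrane or carry molecules across it was followed in intestinal progenitor cells of Drosophila melanogaster. They were taken by name from the table of UMI counts: Pex3, Pex16, Pex19, Pex11, CG13827, PMP34 and Pmp70. They are 7 of the 13189 genes with at least 1 UMI in the 6 libraries. A UMI is a random tag added to each captured transcript before PCR, so that its copies count as 1. Newer annotation names Pex11 as Pex11ab, CG13827 as Pex11c and Pmp70 as Abcd3, and the names of the deposited table are kept here.

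The series held 3 libraries labelled Pex5-depleted and 3 control libraries labelled wild type, all from cells sorted by flow cytometry for GFP driven by esg (escargot), which encodes a transcription factor of midgut stem cells and their undifferentiated daughters. Each replicate came from 200 guts and about 40000 sorted cells. How Pex5 was depleted, and the age and sex of the flies, are not given in the sources used here, nor is the full genotype of the sorted control flies. Libraries held 2573882 to 4793433 UMIs in the group labelled Pex5-depleted and 3013033 to 3547768 UMIs in the controls, and tags were made near the 3′ end of poly-A transcripts.

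Peroxisomes are small organelles that break down fatty acids, handle hydrogen peroxide and begin the synthesis of ether lipids. Their membrane and their interior are supplied by separate routes. Pex19 binds newly made membrane proteins in the cytosol and docks on Pex3, and Pex16 takes part in recruiting Pex3 in mammalian cells, whereas Pex5 is the receptor that brings soluble enzymes into the interior. Proteins of the Pex11 family shape the membrane before it divides. PMP34 belongs to the mitochondrial carrier family and its human counterpart moves cofactors such as coenzyme A. Pmp70 encodes an ABC half-transporter, whose human counterpart brings activated fatty acids into the peroxisome.

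The depleted gene itself was read first. Pex5 had 2, 21 and 41 UMIs in libraries labelled Pex5-depleted 1, 2 and 3, against 8, 6 and 14 in control libraries 1, 2 and 3. The fitted change was 1.24 on the log2 scale (SE 0.87), and the adjusted p from edgeR's quasi-likelihood test, by the Benjamini-Hochberg method, was 0.607. The counts thus do not show the depletion, and every direction below rests on the labels alone.

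Markers of the sorted cells were present: esg averaged 55.4 ± 9.62 CPM in the cells labelled Pex5-depleted and 42.5 ± 13.0 CPM in the control cells (SD, n = 3 each). CPM, the unit of all levels here, is the UMI count of a gene divided by the library's total UMIs times its TMM factor, times 1000000. All 10 progenitor markers had UMIs, with sums of 337 to 377 CPM in the libraries labelled Pex5-depleted and 284 to 342 CPM in the controls. All 15 enterocyte markers had UMIs, and their sums were 913 to 1068 CPM in libraries labelled Pex5-depleted against 374 to 871 CPM in controls. All 13 enteroendocrine markers had UMIs too, with sums of 553 to 999 CPM in the libraries labelled Pex5-depleted and 1058 to 3115 CPM in the controls. By the same test, 3 of 10 tested enteroendocrine markers were lower in the libraries labelled Pex5-depleted at an adjusted p under 0.05. Of these 10, 0 had a positive change. The listed marker pros was too scarce to be tested. It averaged 2.97 ± 3.09 CPM in the libraries labelled Pex5-depleted and 1.26 ± 0.153 CPM in the controls, with overlap. Of 13 tested enterocyte markers, 2 were higher at an adjusted p under 0.05, 11 had a positive change and 2 a negative one. Among the higher was the protease gene Jon25Biii, at 96.17 to 341.40 CPM in libraries labelled Pex5-depleted against 8.55 to 41.28 CPM in controls. The marker mex1 did not rise, at 123 ± 27.4 CPM in libraries labelled Pex5-depleted and 137 ± 24.8 CPM in controls, with overlap. Of 9 tested progenitor markers, 0 passed. Over all tested genes, 0.833% were higher and 0.816% lower. The 9 visceral muscle markers summed to at most 13.3 CPM in any library. Haemocyte markers summed to at most 0.630 CPM and NimC1 had no UMI. Fat body markers summed to 0.342 to 13.7 CPM in the libraries labelled Pex5-depleted and to at most 0.271 CPM in the controls. Among them Lsp2 and Fbp2 had no UMI, and Yp1 was seen in the libraries labelled Pex5-depleted and in no control. Transcripts of the mitochondrial genome took 8.04% to 9.31% of UMIs in the libraries labelled Pex5-depleted and 5.63% to 7.44% in the controls.

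All 7 genes were detected in every library, at levels that spanned a wide range. Per kilobase of the longest annotated transcript, Pex19 averaged 131 CPM over the 6 libraries, PMP34 39.6, Pex11 23.2 and Pex3 9.48. The remaining genes were lower, at 3.53 CPM per kilobase for CG13827, 3.05 for Pex16 and 0.392 for Pmp70. A 3′ tag is counted about once per molecule whatever the transcript's length, so these counts need no division by length. By CPM without length, the order was Pex19, PMP34, Pex11, Pex3, Pex16, CG13827 and Pmp70, so Pex16 and CG13827 changed places. In that order Pex19 lay above PMP34, and Pex3 above Pex16, with no overlap between their ranges over the 6 libraries. The other neighbours had ranges that overlapped, although PMP34 was above Pex11, and CG13827 above Pmp70, in each of the 6 libraries. Among the 5639 genes that passed the expression filter, the level of Pex19 stood at the 93.6th percentile, that of PMP34 at the 81.3rd and that of CG13827 at the 6.40th.

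**Figure D1:**
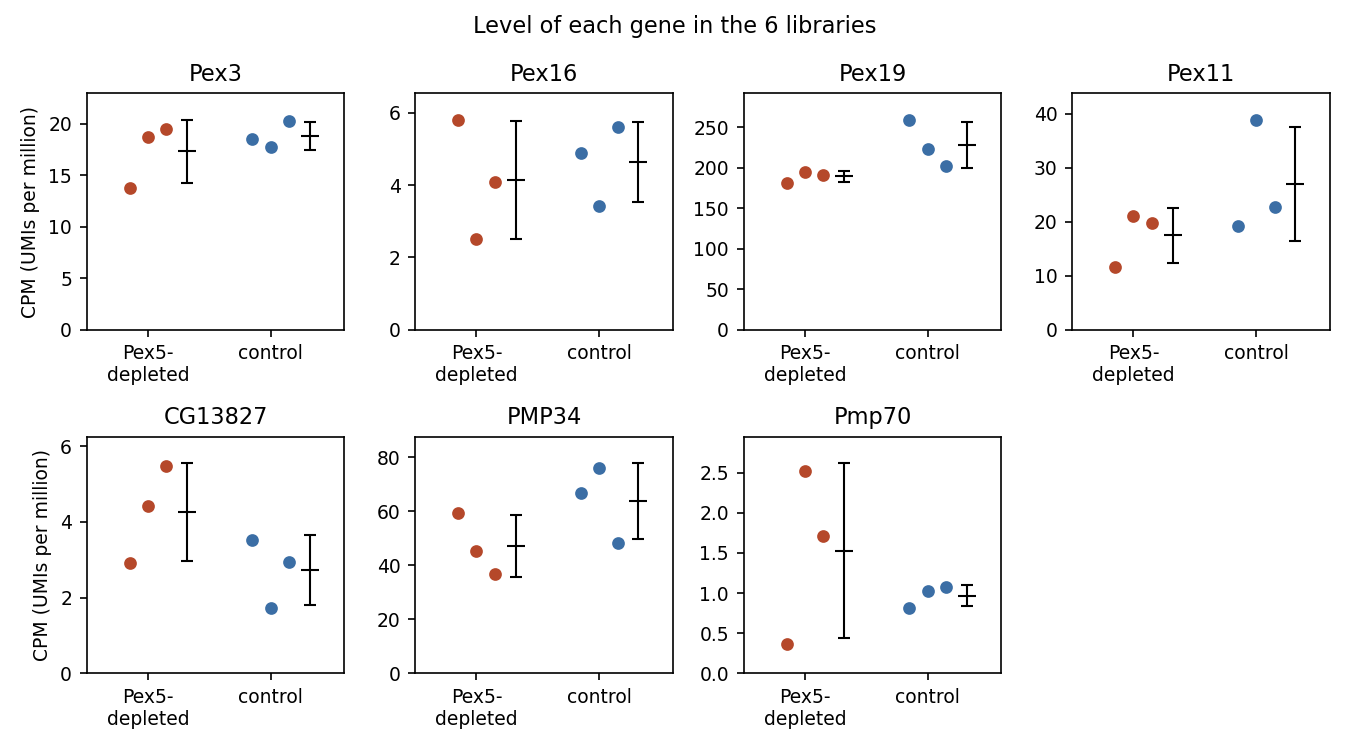
Each panel plots one gene's level in CPM on a linear axis from 0, with a point for each of the 3 libraries labelled Pex5-depleted (left) and the 3 control libraries (right), and beside them the mean with its SD. The Pex19 groups do not overlap, at 181 to 194 CPM in the libraries labelled Pex5-depleted and 202 to 259 CPM in the controls, and the groups of each other gene overlap.

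None of the genes passed the test between the groups. Of the 7, 6 passed the expression filter, and 0 of these had an adjusted p under 0.05 by edgeR's quasi-likelihood test with Benjamini-Hochberg adjustment over all 5639 tested genes, where 1.65% of all tested genes did, 0.833% higher and 0.816% lower in the libraries labelled Pex5-depleted. At an unadjusted p under 0.05 the count was also 0 of 6, against 13.2% of all tested genes, and it was 0 by DESeq2 and by limma-voom. Pmp70 did not pass the filter. Of the 6 tested genes, 5 had a negative fitted log2 fold change, with a median of -0.23 over the 6, and 47.3% of all tested genes were negative, with a median of 0.03. A lower level in sorted bulk cells can mean fewer cells that express the gene or less RNA per cell, and these cannot be told apart.

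Pex19, the carrier of membrane proteins and the most abundant of the genes, lies on chromosome 2L (FBgn0032407, dm6 12091822 to 12095250, plus strand, 6 exons in its longest transcript). It had 498, 922 and 560 UMIs in libraries labelled Pex5-depleted 1, 2 and 3, and 953, 654 and 757 UMIs in control libraries 1, 2 and 3. Scaled to depth this was 181, 194 and 191 CPM in libraries labelled Pex5-depleted, against 259, 223 and 202 CPM in the controls. Every library labelled Pex5-depleted was therefore below every control, as was the case for 9.45% of all tested genes, while the reverse held for 9.72%. The mean was 189 ± 6.90 CPM in libraries labelled Pex5-depleted and 228 ± 28.6 CPM in controls (SD, n = 3 each). The fitted change on the log2 scale was -0.27 (95% interval -0.64 to 0.09, SE 0.17), and the Benjamini-Hochberg adjusted p from edgeR was 0.553. The interval reached as far down as a 0.641-fold level and as far up as 1.07-fold. Spread differed between the groups: the SD was 0.913 times the counting error in the libraries labelled Pex5-depleted and 3.50 times in the controls. Near its 3′ end Pex19 shares 75 exonic bases with CG6712 on the opposite strand, a gene with 988 UMIs of its own. Whether counting used strand is not stated, so reads of the pair may not be separable there. CG6712 also had a negative fitted log2 change, of -0.82. Its levels were 21.05, 45.16 and 35.20 CPM in libraries labelled Pex5-depleted 1, 2 and 3, against 60.00, 74.03 and 46.47 CPM in the controls. The part of CG6712 reads in the Pex19 values was not tested.

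Pex3, the membrane anchor on which Pex19 docks, lies on chromosome 3L (FBgn0036484, dm6 15144355 to 15146379, plus strand, 2 exons) and overlaps no other annotated gene. It had 38, 89 and 57 UMIs in libraries labelled Pex5-depleted 1, 2 and 3, against 68, 52 and 76 in control libraries 1, 2 and 3. Levels were 13.8, 18.7 and 19.5 CPM in libraries labelled Pex5-depleted, against 18.5, 17.7 and 20.3 CPM in controls. The first library labelled Pex5-depleted was the lowest and the other 5 lay close together, so the groups overlapped. The fitted change on the log2 scale was -0.12 (95% interval -0.87 to 0.64, SE 0.35), and it was 0.02 without that library. The Benjamini-Hochberg adjusted p from edgeR was 0.932. Of the pair, Pex19 was the more abundant by UMI count in every library: per Pex3 UMI there were 13.1, 10.4 and 9.82 Pex19 UMIs in the libraries labelled Pex5-depleted, against 14.0, 12.6 and 9.96 in the controls.

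Pex16, the third membrane biogenesis peroxin, was scarce in both groups. The gene lies on chromosome 3L (FBgn0037019, dm6 20776766 to 20778264, minus strand, 2 exons). Libraries labelled Pex5-depleted 1, 2 and 3 held 16, 12 and 12 UMIs, and control libraries 1, 2 and 3 held 18, 10 and 21 UMIs. The levels averaged 4.14 ± 1.64 CPM in libraries labelled Pex5-depleted against 4.64 ± 1.12 CPM in controls (SD, n = 3 each) and overlapped. With a log2 fold change of -0.18 (SE 0.69, 95% interval -1.65 to 1.29), changes of over 2-fold in either direction lie within the interval. Its value was 0.09 without the replicate labelled Pex5-depleted 2 and -0.50 without the replicate labelled Pex5-depleted 1. Near its 3′ end 166 exonic bases are shared with Pitslre on the opposite strand, which had 86 UMIs, close to the 89 of Pex16, so the value of Pex16 is uncertain.

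The Pex11 family members, which act on membrane growth and division, differed in level and in the sign of their fitted change. Pex11 lies on chromosome 2R (FBgn0034058, dm6 15991367 to 15992375, minus strand, 2 exons). It had 11.6, 21.0 and 19.8 CPM in libraries labelled Pex5-depleted 1, 2 and 3, against 19.3, 38.9 and 22.7 CPM in control libraries 1, 2 and 3. The lowest library was labelled Pex5-depleted and the highest was control 2, and the groups overlapped. These rest on 32, 100 and 58 UMIs in libraries labelled Pex5-depleted, against 71, 114 and 85 UMIs in controls. The fitted change on the log2 scale was -0.61 (95% interval -1.42 to 0.20, SE 0.38), and the Benjamini-Hochberg adjusted p from edgeR was 0.547. Without control replicate 2 the fitted value was -0.28.

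CG13827, the Pex11c gene, lies on chromosome 3R (FBgn0039068, dm6 23258365 to 23260602, plus strand, 4 exons). Its counts were 8, 21 and 16 UMIs in the libraries labelled Pex5-depleted and 13, 5 and 11 UMIs in the controls. Levels averaged 4.26 ± 1.29 CPM in libraries labelled Pex5-depleted against 2.72 ± 0.930 CPM in controls (SD, n = 3 each), with overlapping groups. The fitted change on the log2 scale was 0.63 (95% interval -0.94 to 2.21, SE 0.74), and the Benjamini-Hochberg adjusted p from edgeR was 0.773. It was the only one of the 6 fitted genes with a positive value. Without control replicate 2, which had the 5 UMIs, the value was 0.38, and without the replicate labelled Pex5-depleted 3 it was 0.40. The spread within each group was close to counting error, at 1.14 times in libraries labelled Pex5-depleted and 1.06 times in controls.

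Within a library the balance of these family members can be read without scaling. CG13827 gave 20.0%, 17.4% and 21.6% of the UMIs of the pair in libraries labelled Pex5-depleted 1, 2 and 3, and 15.5%, 4.20% and 11.5% in control libraries 1, 2 and 3. All libraries labelled Pex5-depleted thus lay above all controls, and how often other gene pairs separate in this way was not examined. The exact (Clopper-Pearson) 95% intervals were wide, at 12.9% to 32.7% in the highest library labelled Pex5-depleted and 8.51% to 25.0% in the highest control. Ratios of UMIs within a library were tested for 2 pairs, which were chosen after the counts were seen: Pex19 per Pex3 and Pex11 per CG13827. The log2 ratio of Pex11 to CG13827 averaged 2.04 ± 0.20 in libraries labelled Pex5-depleted and 3.30 ± 1.08 in controls (SD, n = 3 each), a difference of -1.27. Without control replicate 2, which had 5 CG13827 UMIs, the difference was -0.66, a check chosen after seeing the data. The two-sided exact permutation p was 0.100, the smallest that 3 against 3 libraries allow, and 0.200 after Benjamini-Hochberg adjustment over the 2 ratios. The ratio of Pex19 to Pex3 had an exact permutation p of 0.600. Other pairs of the genes did not enter the adjustment. Because the pairs were chosen after the counts were seen, these p-values cannot decide whether a ratio differs.

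Of the transporter genes, the carrier gene PMP34 was the more abundant. It lies on chromosome 3L (FBgn0052250, dm6 4318755 to 4321109, plus strand, 3 exons), and only 5 of its exonic bases are shared with a neighbour, CG15014 on the opposite strand. It had 164, 216 and 107 UMIs in libraries labelled Pex5-depleted 1, 2 and 3, and 246, 223 and 181 UMIs in control libraries 1, 2 and 3. Levels were 59.5, 45.4 and 36.6 CPM in libraries labelled Pex5-depleted, against 66.8, 76.1 and 48.3 CPM in controls. Control 3 lay below the first library labelled Pex5-depleted, so the groups overlapped. The mean was 47.2 ± 11.6 CPM in libraries labelled Pex5-depleted and 63.7 ± 14.1 CPM in controls (SD, n = 3 each), and in both groups the SD was over 3 times the counting error. The fitted change on the log2 scale was -0.43 (95% interval -0.998 to 0.13, SE 0.26), and the Benjamini-Hochberg adjusted p from edgeR was 0.536.

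Pmp70, the Abcd3 half-transporter gene on chromosome X (FBgn0031069, dm6 19750770 to 19759280, plus strand, 8 exons), was at the edge of detection. It had 1, 12 and 5 UMIs in libraries labelled Pex5-depleted 1, 2 and 3, and 3, 3 and 4 UMIs in control libraries 1, 2 and 3. The 12 UMIs of the deepest library have an exact Poisson 95% interval of 6.20 to 21.0, and the 4 of the highest control have one of 1.09 to 10.2. The groups overlapped, at 1.53 ± 1.09 CPM in libraries labelled Pex5-depleted against 0.969 ± 0.135 CPM in controls (SD, n = 3 each). A difference between the groups was not detectable at this depth: without a count filter the fitted log2 value was 0.61, and the Benjamini-Hochberg adjusted p from edgeR was 0.912. Near its 3′ end 108 exonic bases are shared with CG12702 on the opposite strand, which had 36 UMIs against 28 of Pmp70, so the value is uncertain.

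Summed over the 7 genes, the level was 275, 288 and 279 CPM in libraries labelled Pex5-depleted 1, 2 and 3, against 372, 362 and 303 CPM in control libraries 1, 2 and 3. The libraries labelled Pex5-depleted lay close together and below all controls. The mean was 280 ± 6.95 CPM in libraries labelled Pex5-depleted and 346 ± 37.4 CPM in controls (SD, n = 3 each), a ratio of 0.811, or 0.761 to 0.839 when each library in turn was left out. No p is attached to this sum. Pex19 gave 65.8% to 68.7% of the UMIs in the libraries labelled Pex5-depleted and 61.6% to 69.5% in the controls, so the sum mostly follows Pex19. Without Pex19 the sum was 94.0, 94.5 and 87.1 CPM in libraries labelled Pex5-depleted against 114, 139 and 101 CPM in controls, again with no overlap. The largest part of it was PMP34, with means of 47.2 and 63.7 CPM in these groups. Each of the remaining genes overlapped between the groups on its own. How often sums of other genes fail to overlap was not examined. The sums of enteroendocrine and enterocyte markers and the mitochondrial share given above also differed between the groups without overlap. Fat body sums did not overlap either, but the gap between the groups was near the floor. The lowest fat body sum labelled Pex5-depleted (0.342 CPM) and the highest control sum (0.271 CPM) were both under 0.630 CPM. A count of 0 in 1 library allows 0.630 to 1.09 CPM. The part of the marker sums and the mitochondrial share in the difference in summed level was not tested.

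**Figure D2:**
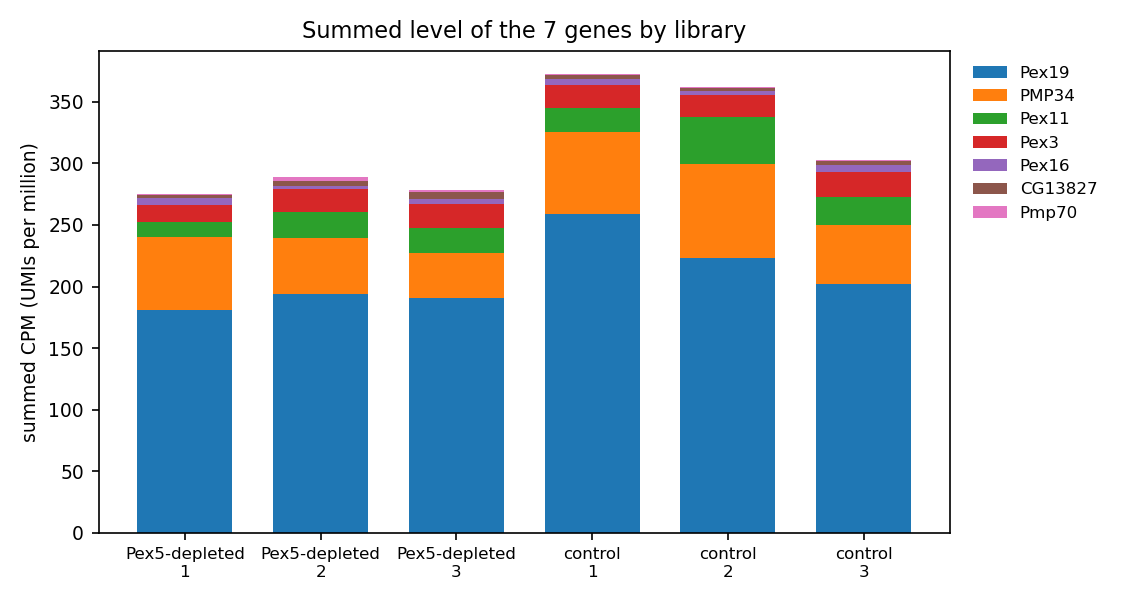
Stacked bars show the summed level in CPM of the 7 genes in each library, with the 3 libraries labelled Pex5-depleted on the left and the 3 controls on the right, and 1 colour for each gene. The bars of the libraries labelled Pex5-depleted reach 275 to 288 CPM and those of the controls 303 to 372 CPM, and Pex19 fills most of each bar.

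By role, the membrane biogenesis peroxins Pex3, Pex16 and Pex19 together stood at 200, 215 and 215 CPM in libraries labelled Pex5-depleted, against 282, 244 and 228 CPM in the controls. The transporters PMP34 and Pmp70 together stood at 59.9, 47.9 and 38.3 CPM in libraries labelled Pex5-depleted against 67.6, 77.1 and 49.4 CPM in controls. The Pex11 family members together stood at 14.5, 25.4 and 25.3 CPM in libraries labelled Pex5-depleted against 22.8, 40.6 and 25.6 CPM in controls. The biogenesis sums did not overlap between the groups, but they mostly follow Pex19. The biogenesis mean was 210 CPM in libraries labelled Pex5-depleted, of which Pex19 gave 189 CPM. In controls it was 251 CPM, of which Pex19 gave 228 CPM. The groups of Pex3 and of Pex16 each overlapped, so the separation is not a trait of all the biogenesis genes. The sums of transporters and of Pex11 family members overlapped.

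Other peroxisomal genes give these values a setting. Of 9 import peroxins, which move enzymes into the organelle, 6 were tested and 0 passed, with 4 positive and 2 negative fitted changes, a median of 0.89 and 3 at an unadjusted p under 0.05, against 13.2% of all tested genes. The targeted gene Pex5 is one of the 4, and without it the median was 0.54. The summed level of the 9 went the other way, at 87.1, 100 and 112 CPM in libraries labelled Pex5-depleted 1, 2 and 3 against 110, 128 and 139 CPM in control libraries 1, 2 and 3, with overlap. The most abundant of them and the one with the smallest p was Pex14, the docking protein for Pex5, at 51.6 ± 6.48 CPM in libraries labelled Pex5-depleted against 96.7 ± 11.5 CPM in controls (SD, n = 3 each). The fitted change was -0.90 on the log2 scale (SE 0.22; Benjamini-Hochberg adjusted p from edgeR 0.0523). Of the fission genes Drp1, Fis1 and Tango11, which act on mitochondria as well as peroxisomes, 3 of 3 were tested and 0 passed. Fis1, a membrane anchor of the fission machinery, was at 96.3 ± 14.8 CPM in libraries labelled Pex5-depleted against 122 ± 24.4 CPM in controls (SD, n = 3 each), and its fitted log2 change was -0.33 (SE 0.21). Of 11 genes of fatty acid activation, beta-oxidation and catalase, 4 were tested and 0 passed, with 3 positive fitted changes and a median of 0.50. The acyl-CoA oxidase gene CG17544 was at 53.8 ± 10.8 CPM in libraries labelled Pex5-depleted against 29.6 ± 8.07 CPM in controls (SD, n = 3 each), a fitted change of 0.87 on the log2 scale (SE 0.29; Benjamini-Hochberg adjusted p from edgeR 0.190). The difference between these lists and the membrane genes was not tested.

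**Figure D3:**
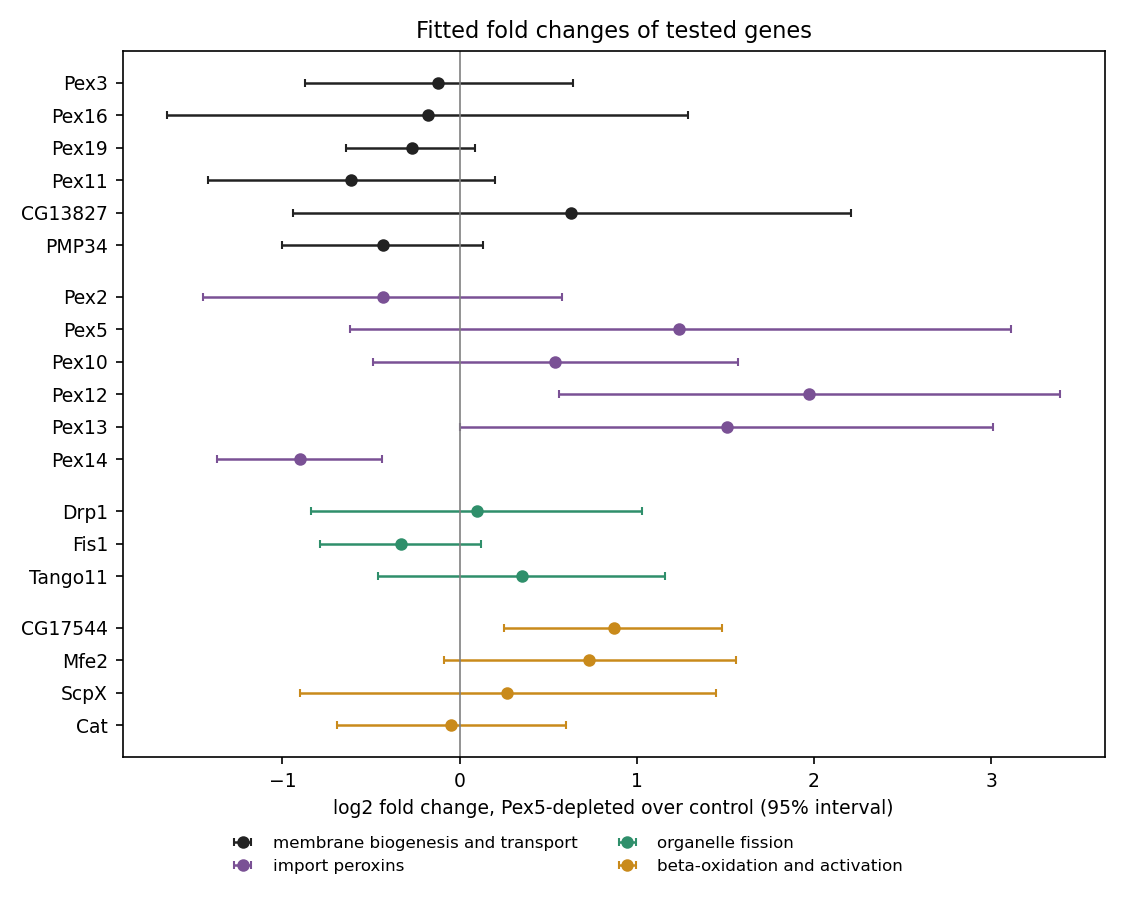
Points give the fitted log2 fold change of each tested gene, libraries labelled Pex5-depleted over control, and lines its 95% interval, for the 6 tested membrane biogenesis and transporter genes and for 3 lists of related genes. The interval of each of the 6 crosses 0, from the narrowest for Pex19 (-0.64 to 0.09) to the widest for CG13827 (-0.94 to 2.21).

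The SE of the fitted change was smallest for the most abundant genes and largest for the scarcest. It was 0.17 for Pex19, with 4344 UMIs over the 6 libraries, and 0.26 for PMP34, with 1137. It was 0.38 for Pex11 and 0.35 for Pex3, with 460 and 380 UMIs. It was 0.69 for Pex16 and 0.74 for CG13827, with 89 and 74 UMIs. The 95% intervals of Pex16 and CG13827 each include a doubling of the level, while those of Pex3, Pex19, Pex11 and PMP34 do not. In the other direction the interval of Pex11 reached a 0.374-fold level and that of PMP34 a 0.501-fold level.

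**Figure D4:**
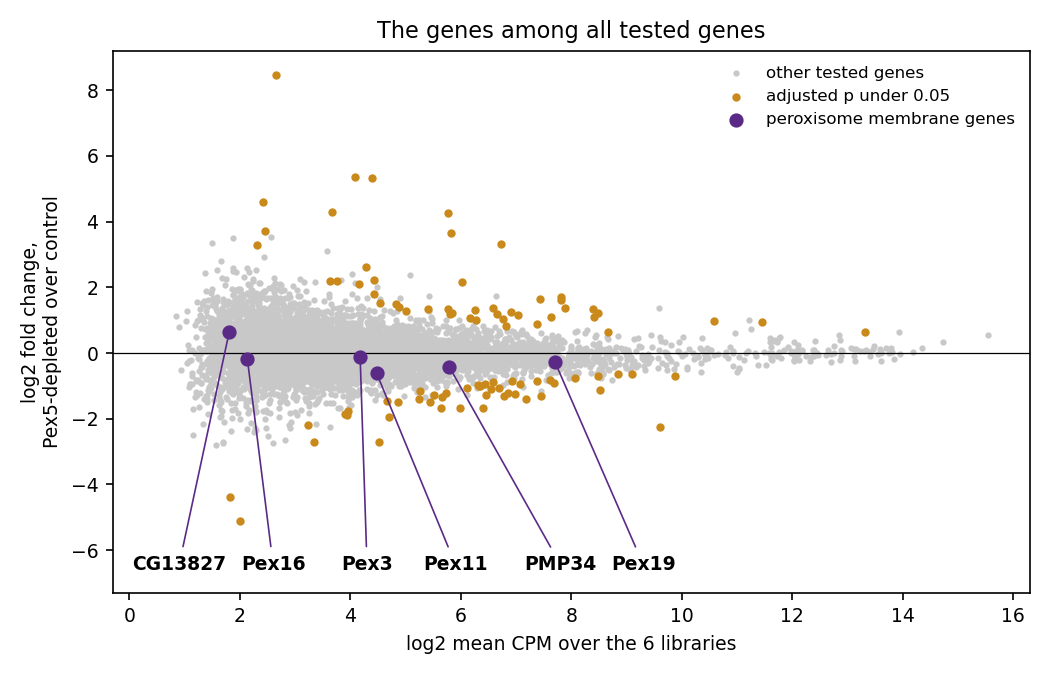
Every tested gene is plotted by its log2 mean CPM (horizontal axis) and its log2 fold change, libraries labelled Pex5-depleted over control (vertical axis), with genes at an adjusted p under 0.05 in orange and the 6 tested membrane biogenesis and transporter genes named. The 6 lie between -0.61 (Pex11) and 0.63 (CG13827), within the cloud of genes that did not pass.

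The profile of Pex19 over the 6 libraries was compared with that of each of the other 5638 tested genes, as the root-mean-square distance between log2 CPM values centred on each gene's mean. The nearest were Prosbeta7, at 0.0476, and Rpn8, at 0.0553, which encode proteasome subunits. CG31717 followed at 0.0560, then Ost48, a subunit of the oligosaccharyltransferase that glycosylates proteins in the endoplasmic reticulum, and nudC, both at 0.0657. The median distance of all genes was 0.51. These nearest genes are the smallest of 5638 distances over only 6 libraries. Whether other proteasome subunits lay near Pex19 was not examined, so no likeness to the proteasome as a whole is shown. Among the genes described here, Pex3 was nearest to Pex19, at 0.20, then PMP34 at 0.29, and CG13827 was farthest, at 0.52. The root-mean-square deviation of a gene from its own mean was 0.17 for Pex19 and for Pex3. It was 0.35 for PMP34, 0.37 for Pex16, 0.44 for CG13827 and 0.49 for Pex11. Pex3 thus lay farther from Pex19 than Pex19 lay from its own mean. The small distance goes with low variation of both genes and does not show that they varied together.

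The authors' deposited table of fold changes lists all 7 genes but its header does not say which groups it compares. In the authors' deposited table Pex19 has a signed fold of -5.28, Pex11 one of -9.36, PMP34 one of -4.62 and Pex3 one of -2.85. CG13827 and Pex16 have -6.28 and -3.78 in the authors' deposited table, and Pmp70 has 1.39. Read in either direction, the folds of the authors' deposited table lay outside the 95% interval fitted to the UMI counts for 6 of the 6 tested genes. This comparison was made for these genes only. The share of all tested genes that do so was not computed, so the mismatch cannot be called particular to them.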

How the data were processed

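The authors deposited UMI counts per gene and well index, made from QIAseq UPX 3′ libraries per the labels' protocols. HISAT2, StringTie and DESeq2, without roles, and build dm6 come from the submitters' processing notes. Reads mapping to several loci were dropped, per the deposited run metrics. The deposited table of signed folds, a linear score, comes with p-values, and per the file headers names no tool or sides. The 29 other well columns, and 6 spike-in rows (3.37e-05% of UMIs), were left out.

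Groups were compared with the quasi-likelihood test of edgeR 4.0.16 (R 4.3.3) on the deposited counts, using TMM factors, filterByExpr (minimum count 10), no covariate, and Benjamini-Hochberg adjustment at 0.05. The SE is the log2 fold change over the square root of F. The code was tested on simulated data. Alternatives were RLE factors, no composition factor, 2 filters, DESeq2 1.42.0, limma-voom (limma 3.58.1), a replicate block and leaving out each library. Replicates of a group differed beyond sampling noise, with 10.3 to 16.3 as chi-square divided by its degrees of freedom. The labels call them biological replicates. A count of 0 in 1 library allows 3 UMIs, or 0.630 to 1.09 CPM, and such floors and intervals cover counting error only. Positions are those of the UMI table, and equalled Ensembl release 115 (BDGP6) for all 7 genes. Exons, overlaps and lengths come from that annotation.

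The genes and lists were chosen with earlier results of these data known. One further gene of the set is not reported here. The 7 others are named, with the targeted gene, the gene of smallest p and the gene of highest level in each related list, and the 5 genes most like the most abundant one. One listed gene (bgm) and 3 listed markers had no UMI here.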

Additional observations from a re-analysis of the deposited data

How the results depend on the processing

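None of the 6 tested genes had an adjusted p under 0.05 in the 13 alternative fits where one was given: DESeq2 gave none for Pex16 and CG13827. The lowest was 0.410 (Pex19, DESeq2, Benjamini-Hochberg). Pmp70 was tested only without a count filter. PMP34 had an unadjusted p of 0.0486 without the replicate labelled Pex5-depleted 1 and 0.0493 without control replicate 3 (edgeR quasi-likelihood). Pex19, Pex11, PMP34 and CG13827 kept their sign in all 13. Leaving out each library in turn, the fitted log2 value ranged from -0.36 to -0.18 for Pex19, -0.81 to -0.28 for Pex11, -0.63 to -0.31 for PMP34 and 0.38 to 0.85 for CG13827. The sign turned in such fits for Pex3 (-0.23 to 0.02) and Pex16 (-0.50 to 0.09), and the cause was not tested. The summed level kept a ratio of 0.802 under RLE factors and 0.779 without any composition factor. The difference in the log2 ratio of Pex11 to CG13827 was -1.69 to -0.66 without each library in turn, chosen after seeing the data.

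Over all genes, 93 passed. The count was 197 without a count filter and 208 with DESeq2, of which 91 and 85 were among the 93, and it ranged from 17 to 80 in the fits without 1 library. The cause was not tested. Equal replicate numbers did not pair the samples: the correlations of their deviations from the group means were -0.01, -0.05 and 0.01. With the replicate block 58 genes and 0 of the 6 tested genes here passed. Depth limits Pmp70, CG13827 and Pex16 most.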
